A study of Homo sapiens with 8 samples.

Results

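The 9 genes described here encode RAS-family GTPases and proteins that switch RAS off or carry its signal. They were taken by name: the GTPases HRAS, NRAS, RRAS, RRAS2 and MRAS, the GTPase-activating proteins NF1, RASA1 and RASAL2, and the scaffold SHOC2. Each name was matched to 1 Ensembl row of the count table, so that 9 of 56632 rows are described, and all 9 were among the 18431 genes with enough counts to be tested. RNA-seq was performed on poly A+ RNA from 4 isogenic human mammary epithelial cell lines grown as three-dimensional acini in Matrigel, with 2 biological replicates of each line. All lines were harvested after 8 days of culture. M1 is MCF10A, a spontaneously immortalized mammary epithelial line that does not form tumors. M2 is MCF10AT1k.cl2, made from MCF10A by introducing the activated oncogene T24-HRAS and passing the cells through a xenograft. M3 (MCF10Ca1h) and M4 (MCF10CA1a.cl1) came from carcinomas that arose in xenografts of M2 cells, so M2, M3 and M4 share the introduced HRAS, and each is a single cell line rather than a sample of independent tumors. The medium held 2% horse serum for all lines, 10 ng/ml EGF (a growth factor that acts upstream of RAS) for M1 and M2, and no EGF for M3 and M4. A difference of M3 or M4 from M1 or M2 therefore cannot be told apart from a difference between media, whereas M2 and M1 shared one medium, as did M4 and M3.

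RAS GTPases are switches at the inner face of the cell membrane. Exchange factors such as SOS1 load them with GTP when growth factor receptors fire, and in that state they recruit RAF kinases, PI3 kinases and other effectors. GTPase-activating proteins end the signal by making RAS hydrolyze GTP, a step that oncogenic RAS proteins resist. SHOC2 joins MRAS and the phosphatase PP1 in a complex that removes an inhibitory phosphate from RAF, which drives the MEK and ERK kinases.

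RAS GTPases are known to differ most from one another near the end of the protein, where a lipid is attached that holds them in the membrane. The last 30 coding bases of the canonical transcript of each gene are shown for this reason, read 5′ to 3′ on the coding strand from the GENCODE transcripts, with the last 15 bases in capitals: the codon of the cysteine that takes the lipid, 3 more codons and the stop codon.
HRAS: tgcatgagctgcaagTGTGTGCTCTCCTGA
NRAS: tgtatgggattgccaTGTGTGGTGATGTAA
RRAS: ggcgggggctgccccTGCGTCCTCCTGTAG
RRAS2: aagaaaggctgccatTGTGTCATTTTCTAG
MRAS: acccacaaactgcaaTGTGTGATCTTGTGA
On GRCh37 these lie at chr11:532636-532665 (minus strand) for HRAS, chr1:115251156-115251185 (minus) for NRAS, chr19:50138833-50138862 (minus) for RRAS, chr11:14300883-14300912 (minus) for RRAS2 and chr3:138121082-138121111 (plus) for MRAS, each within a single coding exon. The lower-case bases hold 2 further cysteine codons in HRAS, 1 each in NRAS, RRAS and RRAS2, and 0 in MRAS. Cysteines at this place in HRAS and NRAS are known to take a second, reversible lipid. Most of these transcripts share no long stretch with another gene. Of all stretches of 50 bases in the canonical transcript, 0% were shared with another annotated gene for HRAS, NRAS, RRAS, MRAS, RASAL2 and SHOC2. The share was 3.2% for NF1, 11.6% for RRAS2, all of it with the pseudogene RRAS2P1, and 13.0% for RASA1, all of it with CCNH, a gene on the opposite strand whose span overlaps RASA1 by 73516 bp. RRAS2P1 itself had at most 22 counts in any library. The counts give the sum of transcripts from the HRAS gene and any introduced HRAS that aligned to it, which cannot be told apart here.

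Total counts ran from 69669945 to 107350288 per library, with a median of 84947193. Replicates were closest in M2 (median absolute log2 difference 0.0656 over 13495 genes) and farthest apart in M3 (0.315), M1 (0.261) and M4 (0.218). In a per-library table that accompanies the study, 2 columns carried each other's names relative to the sample labels. Across 148 genes, the column named M2 replicate 1 was closest to the library labelled M1 replicate 2 (r = 0.985), and the column named M1 replicate 2 was closest to the library labelled M2 replicate 1 (r = 0.977). The numbers of the deposited count columns follow the order M1 to M4 for replicate 1 and then for replicate 2, except at these 2 libraries. In that order, as in the per-library table, each of the 2 holds the place of the other. As labelled, however, the M2 replicates were the closest of any line, as given above. Which assignment is right was not tested, and the sample labels were used. Every comparison of M3 or M4 with M1 or M2 includes 1 of these libraries, and M2 against M1 includes both. Where leaving both out changed a call of a gene or list described below, that is said beside it. The cells expressed epithelial markers: the summed level of 6 basal genes, KRT5 among them, was 7500 to 14900 CPM (counts scaled to the library size). That of 4 general epithelial genes was 1370 and 1530 CPM for M1, 1840 and 1790 for M2, 2530 and 2390 for M3, and 4760 and 3100 for M4, so that the lines stood in the same order, without overlap, as for NRAS and RASA1 below. In M4 against M1 the basal genes KRT14, KRT5 and TP63 were lower (log2 differences -2.37, -1.26 and -1.38, adjusted p 0.00204, 0.00665 and 0.00133 from edgeR). The basal genes LAMB3 and KRT17 went the other way (2.64 and 0.96, adjusted p 0.000531 and 0.0309 from edgeR). The epithelial genes KRT18 and EPCAM were higher (2.00 and 1.57, adjusted p 0.000869 and 0.00379 from edgeR). Without the 2 libraries in question these calls were kept except that of KRT17, with LAMB3 at 3.10 and KRT17 at 1.25. In M3, KRT14 was higher than in M1 (2.88, adjusted p = 0.00159 from edgeR). With the labels of the 2 libraries exchanged, KRT14 was at 1.79 in M3 and was not called (adjusted p = 0.202 from edgeR). Endothelial markers summed to at most 0.326 CPM, and the immune genes PTPRC and CD3E were each under 1 CPM in all libraries, while CD68, which macrophages express most, had 9.55 and 4.03 CPM in M1 and 51.4 and 39.0 in M4. The fibroblast list summed to 60.2 and 8.62 CPM for M1, 74.4 and 72.4 for M2, 10.1 and 15.8 for M3, and 7.59 and 6.43 for M4, with 4 of its 6 genes under 1 CPM throughout, of which 1 was at 0. The part of these markers in the results below was not tested. In these bulk samples, more cells of a kind and more RNA per cell cannot be told apart.

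Against M1, the transcripts of HRAS, NRAS, RASA1 and RASAL2 rose between 1.74-fold and 2.1-fold in M3 and between 2.35-fold and 3.12-fold in M4. MRAS fell in M4, with a level 0.392 of that in M1. No member passed the test in M2, the line into which the HRAS oncogene had been introduced. RRAS, RRAS2, NF1 and SHOC2 passed the test in 0 of 6 comparisons between lines. A gene was called by edgeR's quasi-likelihood test at an adjusted p under 0.05 (Benjamini-Hochberg, over 18431 genes). In M2 against M1, 0 of 9 members were called, against 4.83% of all genes tested. At an unadjusted p under 0.05 the members with a difference between M2 and M1 were NRAS, RRAS2, MRAS and RASA1, and DESeq2 called NRAS. In M3 against M1, 4 of 9 members were called, all higher, against 21.3% of all genes (12.9% higher). In M4 against M1 it was 5 of 9, 4 higher and 1 lower, against 31.4% (15.6% higher and 15.8% lower). Against M2, 3 of 9 were called in M3, all higher, against 5.55% of all genes (3.98% higher), and 4 of 9 in M4, all higher, against 22.2% (11.1% higher). Between M4 and M3 only RASAL2 was called, and higher, 1 of 9 against 16.8% (7.05% higher). With a 2-fold change also required, 1 of 9 was called in M3 against M2 (4.15% of all genes) and 0 of 9 in M4 against M3 (10.3%). These comparisons share libraries, so the counts are not independent of each other.

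The median log2 fold change of the 9 members was 0.10 in M2, 0.80 in M3 and 0.41 in M4 against M1, while that of all genes tested lay between -0.035 and -0.016. Non-overlap of replicates was common throughout: the 2 libraries of M4 lay wholly above or below those of M1 for 8 of 9 members, against 67.3% of all genes. The corresponding number was 6 of 9 in M3 (59.4% of all genes) and 6 of 9 in M2 (61.0%). Without the 2 libraries in question, the same 4 members remained higher in M4 against M1 (HRAS, NRAS, RASA1 and RASAL2) and MRAS was no longer called, 2 remained in M3 against M1 (NRAS and RASA1) and 0 in M3 against M2. With the labels of those libraries exchanged, the 4 higher members in M4 against M1 were called again, and 0 members were called in M3 against M1 or M2. The differences of M3 from M1 were then 0.93 for HRAS, 0.76 for NRAS, 0.93 for RASA1 and 0.96 for RASAL2 (adjusted p 0.0658 to 0.228 from edgeR). The share of all genes called in these alternative fits is not given here, so a loss of calls in general cannot be told apart. The 3 calls in M3 against M2 were also lost without M2 replicate 1 and without M2 replicate 2.

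**Figure D1:**
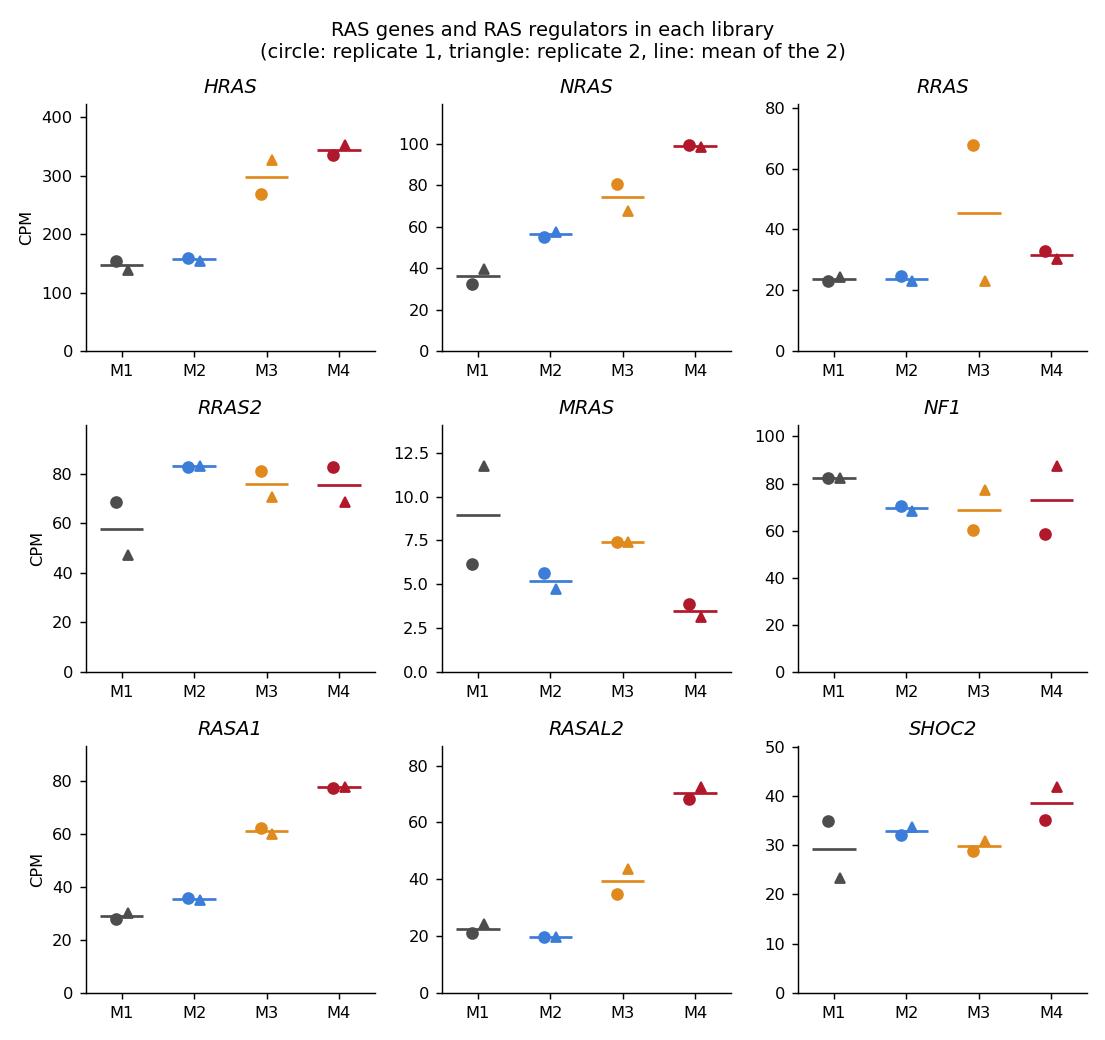
Level of each of the 9 genes in CPM (y axis, from 0, on its own scale in each panel) in the 4 lines (x axis), with replicate 1 as a circle, replicate 2 as a triangle and the mean of the 2 as a line. HRAS, NRAS, RASA1 and RASAL2 are higher in both M3 and both M4 libraries than in any M1 or M2 library, while the high RRAS value of 67.8 CPM belongs to M3 replicate 1 alone.

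HRAS (ENSG00000174775, chr11:532242-537321, minus strand, GRCh37) encodes the GTPase whose activated form was introduced into M2. It had 154.1 and 138.7 CPM for M1 (replicates 1 and 2), 159.8 and 153.5 for M2, 269.3 and 327.1 for M3, and 335.2 and 352.4 for M4. The 4 libraries of M1 and M2 were close to one another and their ranges overlapped, whereas every M3 and M4 library was above all of them. The means were 146.4 ± 10.9 CPM for M1, 156.7 ± 4.46 for M2, 298.2 ± 40.9 for M3 and 343.8 ± 12.2 for M4 (SD, n = 2 each).

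The difference of M2 from M1 was 0.098 on the log2 scale (95% interval -0.243 to 0.438, adjusted p = 0.736 from edgeR), an interval that excludes a doubling of HRAS transcripts. M3 and M4 were above M1 by 1.026 (standard error, SE, 0.148, adjusted p = 0.0038 from edgeR) and 1.232 (SE 0.149, adjusted p = 0.00119). They were above M2 by 0.929 (adjusted p = 0.0144 from edgeR) and 1.134 (adjusted p = 0.00261). The call of M3 against M2 was lost without the 2 libraries in question, where the difference was 0.96, and without either M2 library. M4 and M3 differed by 0.205 (95% interval -0.135 to 0.545, adjusted p = 0.364 from edgeR), within the spread of replicates. The call of HRAS in M4 against M1 held in all 16 alternative fits (adjusted p up to 0.0293 from edgeR), and that in M3 against M1 was lost without the 2 libraries in question (0.96, adjusted p = 0.0657).

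NRAS (ENSG00000213281, chr1:115247090-115259392, minus strand), a GTPase of the same core group, had 32.35 and 39.8 CPM for M1, 55.2 and 57.6 for M2, 80.85 and 67.8 for M3, and 99.6 and 98.4 for M4. The lines followed one another without overlap, from M1 as the lowest through M2 and M3 to M4. The log2 difference between M2 and M1 was 0.645 (SE 0.153) and lay just outside the threshold (adjusted p = 0.0558 from edgeR). This step passed without the filter on low counts (adjusted p = 0.0127 from edgeR) and with DESeq2 (0.00609), and it was 0.15 with the labels of the 2 libraries exchanged. Against M1, NRAS was higher by 1.043 in M3 (SE 0.154, adjusted p = 0.00406 from edgeR) and by 1.457 in M4 (SE 0.155, adjusted p = 0.000697). M4 was above M2 by 0.811 (adjusted p = 0.00967 from edgeR), a call that was lost without either M2 library (adjusted p 0.107 and 0.087), without M4 replicate 1 (0.0527) and without the 2 libraries in question (0.0956). The neighbouring steps from M2 to M3 (0.398, adjusted p = 0.175 from edgeR) and from M3 to M4 (0.413, adjusted p = 0.101) did not pass.

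RRAS (ENSG00000126458, chr19:50138549-50143400, minus strand), an R-RAS protein known for its part in integrin adhesion, stood at 23.2 and 24.4 CPM for M1, 24.5 and 23.1 for M2, 67.8 and 23.1 for M3, and 33.0 and 30.4 for M4. M3 replicate 1 was far above every other library, while M3 replicate 2 was the lowest of the 8. The log2 difference of M3 from M1 was 0.933 (95% interval -0.028 to 1.894, adjusted p = 0.146 from edgeR). Without M3 replicate 2 this was 1.52 (adjusted p = 0.00298 from edgeR), and without M3 replicate 1 it was -0.03, so that the value of M3 is decided by 1 library. The M4 libraries lay above those of M1, by 0.412 (95% interval -0.543 to 1.367, adjusted p = 0.484 from edgeR), a difference that passed only without either M3 library (adjusted p 0.0415 and 0.0354).

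RRAS2 (ENSG00000133818, chr11:14299468-14386052, minus strand), a close relative of RRAS that signals much like the core RAS proteins, had 68.4 and 47.1 CPM for M1, 82.7 and 83.2 for M2, 81.3 and 70.7 for M3, and 82.8 and 68.5 for M4. Both M1 libraries were below all 6 others. The differences from M1 were 0.522 in M2 (adjusted p = 0.168 from edgeR), 0.395 in M3 (0.188) and 0.389 in M4 (0.172), none past the threshold. Their size depended on which M1 library was kept. Without M1 replicate 1 RRAS2 was called higher in M3 (0.69, adjusted p = 0.0484 from edgeR) and in M4 (0.70, adjusted p = 0.0317), whereas without M1 replicate 2 these differences were 0.15 and 0.14, and that of M2 was 0.28. Without both libraries in question they were 0.29 in M2, 0.16 in M3 and 0.14 in M4, and with their labels exchanged -0.21, 0.01 and 0.00, none of them called.

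MRAS (ENSG00000158186, chr3:138066490-138124376, plus strand), the GTPase that binds SHOC2, was the least abundant member, at 6.13 and 11.75 CPM for M1, 5.65 and 4.73 for M2, 7.415 and 7.39 for M3, and 3.89 and 3.11 for M4. The 2 M1 libraries differed by 62.9% of their mean, and both M4 libraries were below all others. Against M1, MRAS was lower in M4, with a log2 difference of -1.351 (SE 0.337, adjusted p = 0.0196 from edgeR). This call rested on M1 replicate 2, one of the 2 libraries in question: without it the difference was -0.81 (adjusted p = 0.0859 from edgeR). It was also lost when only these 2 lines were fitted (adjusted p = 0.062 from edgeR) and without M4 replicate 1 (0.0623) or M4 replicate 2 (0.12). The difference of M4 from M3 was -1.08 (adjusted p = 0.0636 from edgeR, and 0.0155 with DESeq2).

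To compare levels between genes, CPM was divided by the length of the canonical transcript in kb. On this scale HRAS was the most abundant of the 5 GTPases in every library, with 66.1% to 81.1% of their sum. The sum itself was 205.7 and 186.7 CPM per kb for M1, 223.7 and 217.0 for M2, 375.6 and 376.8 for M3, and 405.9 and 412.9 for M4, so that both xenograft carcinoma lines lay above M1 and M2. In M4 the share of HRAS was 77.2% and 79.8%, against 70.0% and 69.5% in M1 and 66.8% and 66.1% in M2. The M3 libraries split, at 67.0% and 81.1%, and in the former RRAS took 18.3% of the sum. The ratio of HRAS to NRAS per kb ran from 10.8 in M2 replicate 2 to 19.5 in M3 replicate 2, with 19.3 and 14.1 in M1 and 13.6 and 14.5 in M4. This scale assumes the canonical transcript, and the 4326 bp of NRAS against 1070 bp of HRAS bear on the ratio.

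**Figure D2:**
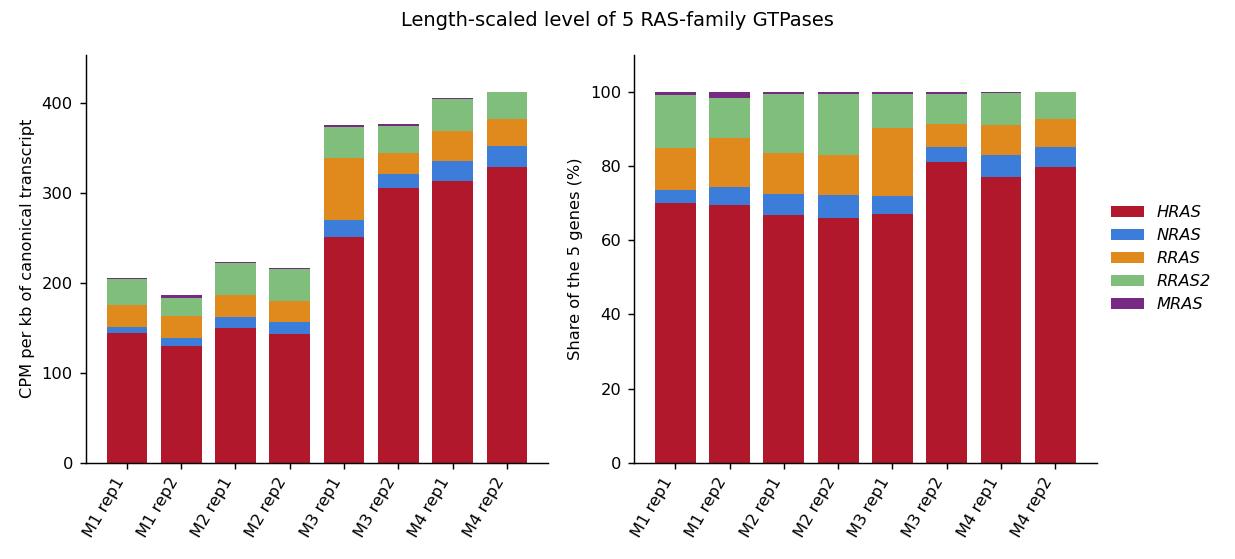
Length-scaled levels of HRAS, NRAS, RRAS, RRAS2 and MRAS in each library, stacked as CPM per kb of canonical transcript (left, y axis) and as the share of their sum in percent (right, y axis). The sum is 186.7 to 223.7 CPM per kb in M1 and M2 and 375.6 to 412.9 in M3 and M4, and HRAS is the main part of every bar.

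Of the 3 GTPase-activating proteins, RASA1 and RASAL2 rose in M3 and M4 and NF1 did not pass the test. RASA1 (ENSG00000145715, chr5:86563700-86687748, plus strand), which is recruited to activated receptors through SH2 domains, had 28.0 and 30.1 CPM for M1, 35.9 and 35.15 for M2, 62.2 and 59.8 for M3, and 77.4 and 77.8 for M4. The replicates of each line were within 7.05% of their mean, and the 4 lines did not overlap. Its log2 difference from M1 was 0.29 in M2 (adjusted p = 0.201 from edgeR), 1.07 in M3 (SE 0.122, adjusted p = 0.00158) and 1.416 in M4 (SE 0.122, adjusted p = 0.000344). M4 was also above M2, by 1.126 (adjusted p = 0.00131 from edgeR), and M3 above M2 by 0.779 (adjusted p = 0.0134). The call of M3 against M2 was lost without the 2 libraries in question, where the difference was 0.80, and without either M2 library. The step from M3 to M4 was 0.346 (95% interval 0.068 to 0.624, adjusted p = 0.0858 from edgeR, and 0.027 with DESeq2). CCNH, which shares bases with RASA1, differed from M1 by 0.25 in M2, 0.31 in M3 and 0.37 in M4 (adjusted p 0.259, 0.11 and 0.0511 from edgeR).

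RASAL2 (ENSG00000075391, chr1:178063239-178453282, plus strand), a RAS GTPase-activating protein described as a tumor suppressor in some breast cancers and as a promoter of invasion in others, had the largest difference between M4 and M1 among the 9 genes. It had 20.9 and 24.1 CPM for M1, 19.6 and 19.7 for M2, 34.8 and 43.7 for M3, and 68.1 and 72.6 for M4. M2 was slightly below M1, M3 was above both, and both M4 libraries were above all others. Against M1 the log2 difference was -0.198 in M2 (adjusted p = 0.491 from edgeR), 0.802 in M3 (SE 0.158, adjusted p = 0.0117) and 1.643 in M4 (SE 0.16, adjusted p = 0.000515). RASAL2 was the only member called between M4 and M3, where EGF was absent from both media, with a difference of 0.841 (SE 0.157, adjusted p = 0.0133 from edgeR). That call was lost without M4 replicate 1 (adjusted p = 0.0637 from edgeR) or M4 replicate 2 (0.0682), where the lone M4 library is assumed to vary like the other lines. The M3 difference from M1 was lost without M1 replicate 1 (0.71, adjusted p = 0.0547 from edgeR), with only the 2 lines fitted (0.80, adjusted p = 0.0708) and without the 2 libraries in question (0.91, adjusted p = 0.0715).

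NF1 (ENSG00000196712, chr17:29421945-29709134, plus strand), or neurofibromin, the RAS GTPase-activating protein lost in neurofibromatosis, had 82.5 and 82.5 CPM for M1, 70.7 and 68.2 for M2, 60.4 and 77.1 for M3, and 58.5 and 87.5 for M4. The M4 libraries spanned all the others. The difference from M1 was -0.249 in M2 (95% interval -0.727 to 0.229), -0.263 in M3 (-0.741 to 0.215) and -0.177 in M4 (-0.654 to 0.301), and the adjusted p from edgeR lay between 0.395 and 0.552. All 3 intervals include 0.

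SHOC2 (ENSG00000108061, chr10:112679125-112777065, plus strand), the leucine-rich repeat scaffold, stood at 34.9 and 23.4 CPM for M1, 32.2 and 33.75 for M2, 28.9 and 30.8 for M3, and 35.1 and 41.9 for M4. The M1 libraries enclosed those of M2 and M3, and M4 lay just above. The difference of M4 from M1 was 0.401 (95% interval -0.067 to 0.869, adjusted p = 0.17 from edgeR), and it was called only without M1 replicate 1 (0.73, adjusted p = 0.0271). Without M1 replicate 2 it was 0.14 (adjusted p = 0.608 from edgeR), and it was also 0.14 without both libraries in question.

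**Figure D3:**
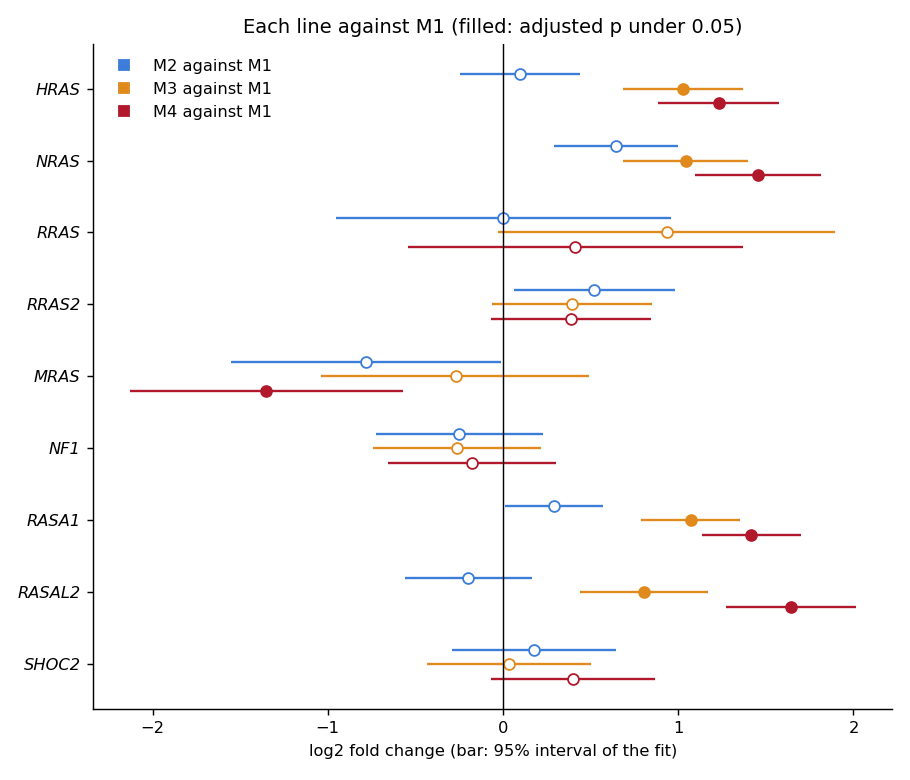
Log2 fold change of M2, M3 and M4 against M1 (x axis) for the 9 genes (y axis), with the 95% interval of the edgeR fit as a bar and a filled point where the adjusted p was under 0.05. HRAS, NRAS, RASA1 and RASAL2 have filled points in M3 and M4 to the right of 0, MRAS has a filled point in M4 at -1.351, and no M2 point is filled.

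The 9 genes lie on several chromosomes, and the genes beside them were examined in the same fit. LRRC56, whose span begins 206 bp from that of HRAS on the opposite strand, was lower than in M1, with log2 differences of -2.02 in M3 (adjusted p = 0.0159 from edgeR) and -1.98 in M4 (adjusted p = 0.0118), opposite in direction to HRAS. RNH1, the nearest tested gene on the other side of HRAS, was at -0.29 and -0.32 (adjusted p 0.182 and 0.128 from edgeR). LRRC56 was at -2.27 in M3 (adjusted p = 0.0538 from edgeR) and -2.23 in M4 (adjusted p = 0.0434) without the 2 libraries in question, and with their labels exchanged it was called in neither.

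RASAL2-AS1, a long noncoding RNA 120 bp from RASAL2 on the other strand, had a mean of 40.25 counts and was at 0.59 in M3 and 0.81 in M4 (adjusted p 0.47 and 0.291 from edgeR). BBIP1, 166 bp from SHOC2 on the other strand, was higher by 1.42 in M3 (adjusted p = 0.00763 from edgeR) and by 0.87 in M4 (adjusted p = 0.0313), whereas SHOC2 did not pass. Inside the span of NF1, on the other strand, EVI2B was higher in M2 by 2.78 (adjusted p = 0.017 from edgeR), in M3 by 2.49 (0.00828) and in M4 by 2.94 (0.00299). EVI2A, its neighbour there, was lower in M4 (-4.18, adjusted p = 0.00232 from edgeR). When the 2 libraries in question were left out, BBIP1 was called in neither line (adjusted p 0.0586 and 0.152 from edgeR), and EVI2B was called in M4 only (2.93, adjusted p = 0.0353). With their labels exchanged BBIP1 and EVI2B had no call, and EVI2B was at 0.11 in M2, 0.57 in M3 and 1.02 in M4. EVI2A was called in M4 in both of these fits (-3.35 and -4.48, adjusted p 0.0151 and 0.0144 from edgeR). The means of EVI2B and EVI2A were 179.8 and 137.0 counts. The sources used here do not state whether counting used the strand, so reads from a gene and an overlapping gene on the other strand may have been mixed.

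Over the 8 libraries, the log2 levels of HRAS, NRAS, RASA1 and RASAL2 varied together. Pearson's r was 0.97 between HRAS and RASA1, 0.95 between NRAS and RASA1, 0.94 between HRAS and RASAL2, 0.93 between RASA1 and RASAL2, 0.87 between HRAS and NRAS and 0.83 between NRAS and RASAL2. These are descriptions over 8 points that share lines, media and library preparation. The genes were set together after being called higher in M3 and M4 in the same libraries, so a high r largely restates those calls. MRAS and SHOC2, which form 1 complex, had an r of -0.95. M1 replicate 2, a library in question, held both the highest MRAS (11.75 CPM) and the lowest SHOC2 (23.42 CPM) of the 8. The r without that library was not computed. Among 12805 genes with a mean of at least 100 counts, the pattern most like that of HRAS was found in TIPARP (r = 0.994), followed by RASA2 and BAG2 (both 0.993). For NRAS the closest were CALU (0.994), NELFE (0.993) and CYB5B (0.99), for RASA1 the pseudogene SBDSP1 and CXCL8 (both 0.995) and ZNF266 (0.994), and for RASAL2 they were OSBP2 (0.999), HS3ST2 (0.99) and ABL2 (0.989). The closest gene was NFKBIE for RRAS (0.982), CTNNBL1 for RRAS2 (0.973), APOE for MRAS (0.978), JADE3 for NF1 (0.965) and CD2AP for SHOC2 (0.983). Likeness here disregards size: the M4 difference from M1 was 1.232 for HRAS, 1.21 for TIPARP and 4.95 for BAG2.

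Other genes of the pathway were grouped in 8 lists, from regulators to transcripts that depend on ERK. The 81 genes tested had 0 higher and 3 lower in M2 against M1, 13 higher and 6 lower in M3, and 16 higher and 12 lower in M4, to be read beside 4.83% of all genes called in M2, 12.9% higher and 8.33% lower in M3, and 15.6% higher and 15.8% lower in M4. Without the 2 libraries in question there were 0 calls in M2, 12 higher and 2 lower in M3, and 14 higher and 7 lower in M4. With their labels exchanged there were 0 calls in M2, 2 higher and 1 lower in M3, and 8 higher and 4 lower in M4. Of 6 other RAS GTPase-activating proteins tested, 1 was higher and 2 lower than in M1 in M3, and again 1 higher and 2 lower in M4, with a median of -0.76 there. RASA2, a relative of RASA1, had 9.93 and 8.39 CPM for M1, 10.6 and 10.0 for M2, 15.1 and 18.7 for M3, and 20.2 and 19.9 for M4, above M1 by 0.88 in M3 (adjusted p = 0.0144 from edgeR) and 1.13 in M4 (0.00379). DAB2IP, a GTPase-activating protein known as a suppressor of RAS and NF-kappaB signaling, went the other way, with 191 and 157 CPM in M1 and 92.5 and 106 in M4 (-0.81, adjusted p = 0.00852 from edgeR). RASA4 was lower in all 3 lines (log2 differences -1.69, -1.26 and -3.18, adjusted p 0.0304, 0.0297 and 0.000773 from edgeR), but it has a near-identical copy, RASA4B, and the division of reads between them is uncertain. With the labels of the 2 libraries in question exchanged, RASA4 was at 0.53 in M2, -0.36 in M3 and -2.28 in M4, none of them called.

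Of all genes tested, 12.9% were higher and 8.33% lower than M1 in M3, and 15.6% and 15.8% in M4. Among 6 exchange factors tested, 1 was higher in M3 and 1 lower in M4. With the 2 libraries in question left out it was 1 higher in M3, and 1 higher and 1 lower in M4. RASGRP1, an exchange factor activated by diacylglycerol, was at 5.43 and 5.32 CPM in M3 and at 0.147 to 0.695 CPM in all other libraries, a difference from M1 of 3.44 (adjusted p = 0.00368 from edgeR, and 0.00935 without those libraries). Of 6 proteins that bind NF1 or RAS, 2 were higher in M3 and 1 in M4. These included SPRED2, which brings NF1 to the membrane, with 15.1 and 13.3 CPM in M1, 28.8 and 68.1 in M3 and 50.2 and 67.6 in M4 (1.77 and 2.06, adjusted p 0.0146 and 0.00588 from edgeR). SPRED1 was called in M3 (1.52, adjusted p = 0.0305 from edgeR) but not in M4 (0.23, adjusted p = 0.677). Without the 2 libraries in question, 0 of these 6 binding proteins were called in M3 or M4, and among the other GTPase-activating proteins 0 were called in M2 or M3 and 2 in M4, DAB2IP and RASA4, both lower. RASA2 was then at 0.77 in M3 and 1.02 in M4 (adjusted p 0.147 and 0.0617 from edgeR).

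Of 12 genes that attach or remove the lipids of RAS, only FNTB, a subunit of farnesyltransferase, was called in M3 (0.66, adjusted p = 0.023 from edgeR), and 0 were called in M4. The shares of all genes called in either direction were 21.3% in M3 and 31.4% in M4. FNTB was not called without the 2 libraries in question (0.67, adjusted p = 0.162 from edgeR), whereas ABHD17C, which removes palmitate from RAS and is named here after its values were seen, was then called higher in M3 and M4 (1.56 and 0.95, adjusted p 0.0155 and 0.0491). Among 19 further RAS-like GTPases, 1 was higher in M3, and in M4 3 were higher and 4 lower. For all genes it was 12.9% higher in M3, and 15.6% higher and 15.8% lower in M4. RAP2B had 23.0 and 26.9 CPM in M1 and 67.5 and 69.0 in M4 (1.45, adjusted p = 0.000844 from edgeR). RERG, a growth-inhibiting GTPase known from estrogen-responsive breast cancer, had 9.66 and 17.4 CPM in M1 and 2.45 and 1.9 in M4 (-2.63, adjusted p = 0.00296 from edgeR). RAP1B was higher in M4 by 0.75 (adjusted p = 0.00474 from edgeR). The list had 2 higher in M3, and 2 higher and 3 lower in M4, without the 2 libraries in question. RAP2B and RERG then still passed in M4, while RAP1B did not (0.70, adjusted p = 0.0886 from edgeR). RASD2 was called lower in M4, where it had 0.0264 and 0 CPM, but its M1 libraries stood apart, at 0.665 and 8.71 CPM, the latter in one of the 2 libraries in question.

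Downstream, the 12 kinases and phosphatase subunits from RAF to ERK had 1 higher and 1 lower in M3 and again in M4, beside 21.3% and 31.4% of all genes called in either direction. MAP2K1, which encodes the kinase MEK1, had 64.7 and 45.2 CPM for M1, 77.5 and 78.4 for M2, 172 and 154 for M3, and 123 and 128 for M4. Its M3 and M4 libraries did not overlap those of M1 or M2, and the differences from M1 were 1.57 and 1.19 (adjusted p 0.00178 and 0.00295 from edgeR). ARAF was lower (-0.48 and -0.43, adjusted p 0.0344 and 0.0352 from edgeR). Without the 2 libraries in question MAP2K1 passed (1.33 and 0.95, adjusted p 0.018 and 0.0362 from edgeR) and ARAF did not (adjusted p 0.214 and 0.223). With their labels exchanged neither passed (adjusted p 0.0865 and 0.0952 for MAP2K1 from edgeR).

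Of 10 other effectors tested, 1 was higher and 3 lower in M3, and 4 were higher and 3 lower in M4. The shares of all genes were 12.9% higher and 8.33% lower in M3, and 15.6% and 15.8% in M4. PIK3CB, a catalytic PI3 kinase subunit, was higher by 0.72 in M3 and 1.00 in M4 (adjusted p 0.0372 and 0.00766 from edgeR), and RASSF1 by 1.05 in M4 (0.0314). RGL1, an exchange factor for RAL, had 8.73 and 8.03 CPM for M1, 6.97 and 6.35 for M2, 1.33 and 1.87 for M3, and 1.26 and 1.4 for M4 (-2.39 and -2.66, adjusted p 0.00187 and 0.000728 from edgeR). In M2 against M1, 2 of the effectors were lower, beside 4.83% of all genes called in either direction. Among the 2 was PLCE1 (-2.23, adjusted p = 0.037 from edgeR), and the other lists together had 1 call, RASA4. All 3 of these M2 calls were lost without the 2 libraries in question and with their labels exchanged. Without those libraries, 0 effectors were higher and 2 lower in M3, and 0 were higher and 1 lower in M4, RGL1 being lower in both (-2.44 and -2.71, adjusted p 0.018 and 0.00887 from edgeR).

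The list of 10 transcripts that depend on ERK was written from general knowledge of ERK output, but with earlier results of these data known. Its counts are therefore not independent of these data. The list had 0 calls in M2, 5 higher in M3, and 6 higher and 1 lower in M4. All genes tested had 4.83% called in M2, 12.9% higher in M3, and 15.6% higher and 15.8% lower in M4. The median difference of the 10 from M1 was 0.20 in M2, 1.33 in M3 and 1.24 in M4, beside medians of all genes near 0 given above. Without the 2 libraries in question the median of the 10 was 0.77, 2.19 and 1.92, and with their labels exchanged 0.48, 1.62 and 1.29. The summed level of the list was 387 and 894 CPM for M1, the latter in a library in question, and 681 and 700 for M2. SPRY4, a feedback inhibitor of receptor signaling, had 6.73 and 8.62 CPM for M1, 12.0 and 12.5 for M2, 21.3 and 44.1 for M3, and 42.8 and 72.8 for M4 (2.09 and 2.91, adjusted p 0.009 and 0.00184 from edgeR). DUSP6, the phosphatase that acts on ERK, had its highest values in M3, with 38.2 and 99.1 CPM for M1, 143 and 152 for M2, 458 and 444 for M3, and 155 and 216 for M4 (2.72 and 1.44 for M3 and M4 against M1, adjusted p 0.00467 and 0.0281 from edgeR). Its differences of M3 from M2 (1.61, adjusted p = 0.0592 from edgeR) and of M4 from M3 (-1.28, adjusted p = 0.0615) did not pass. With the labels of the 2 libraries in question exchanged, DUSP6 was at 2.31 in M3 and 1.03 in M4 against M1. It was then called in neither (adjusted p 0.103 and 0.264 from edgeR). EPHA4 was lower in M4 (-2.26, adjusted p = 0.00901 from edgeR), with 10.4 and 26.7 CPM in M1. Without the 2 libraries in question 7 of the 10 were higher in M3 and 9 in M4, and with their labels exchanged 1 and 5. SPRY4 in M3 (adjusted p = 0.0538 from edgeR) and EPHA4 in M4 (adjusted p = 0.0675) did not pass without those libraries.

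**Figure D4:**
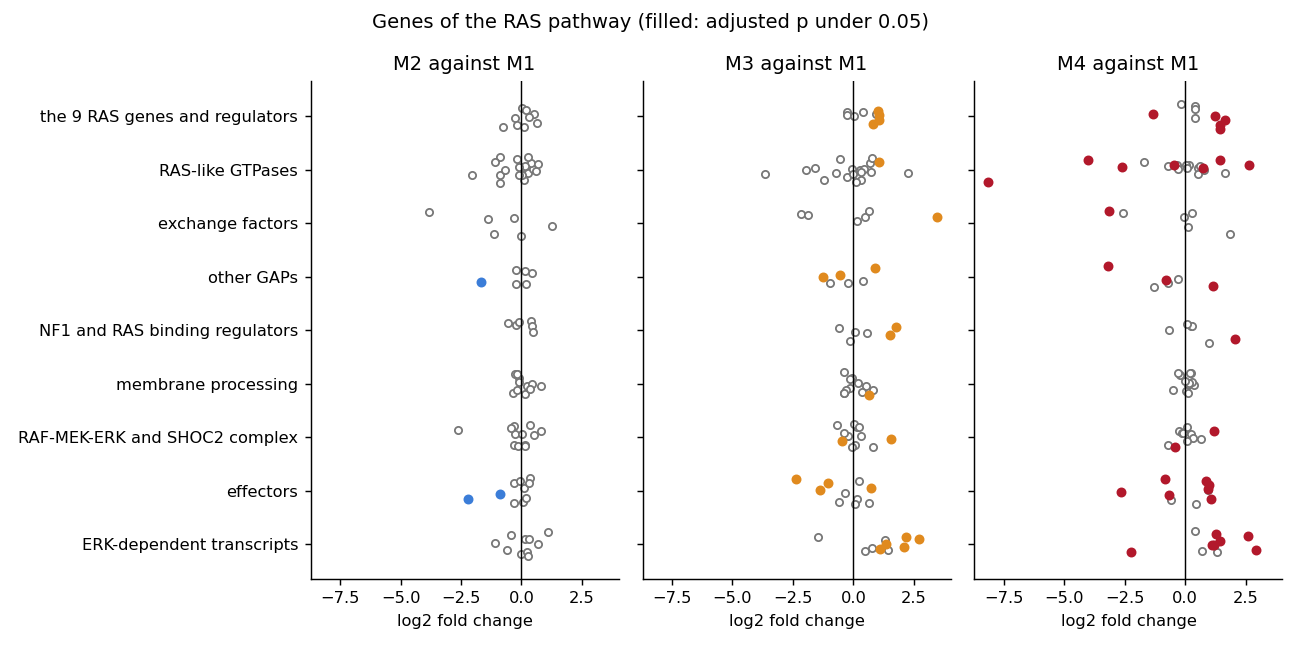
Log2 fold change against M1 (x axis) in M2, M3 and M4 (panels) for the 9 genes and for the genes of 8 pathway lists (rows), 1 point per gene, filled where the adjusted p from edgeR was under 0.05. In M3 and M4 the filled points of the ERK-dependent transcripts lie to the right of 0 except EPHA4 in M4, while the lipid-processing and RAF to ERK rows stay close to 0 apart from MAP2K1 and a few others.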

How the data were processed

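The authors deposited expected counts per gene for 8 libraries, made by trimming with Trimmomatic, aligning to hg19 with STAR and counting with RSEM on GENCODE v19. Tool versions and strand use are not given in the sources used here. Of these values 12.8% were not whole, and they were rounded. Symbols, coordinates and transcript lengths came from GENCODE 44 mapped to GRCh37, which matched 94.7% of genes with a count.

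Counts were tested with edgeR 4.0.16 in R 4.3.3 (robust quasi-likelihood, TMM, filterByExpr, 1 coefficient per line, all 8 libraries), with Benjamini-Hochberg adjustment over 18431 genes in each of 6 comparisons. Standard errors are those implied by the F statistic. CPM used TMM library sizes. Correlations used log2(CPM + 0.1). Alternatives were DESeq2 1.42.0 and its size factors, other filters on low counts, a 2-fold threshold, a replicate block, fits of only the 2 lines compared, the exchanged labels, and leaving out libraries. The fit was also run on simulated counts with genes changed in M4 only. That run cannot show how well changes in M2 or M3 are found. Python 3.11.15, pandas 2.3.3, numpy 2.4.6 and matplotlib 3.10.9 were used for the rest.

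The members and lists were chosen with earlier results of these data known. From each list, the genes named are the 2 with the largest called increase and the 2 with the largest called decrease against M1 among those with a mean of at least 100 counts. Neighbours are the nearest tested gene on each side and tested genes that overlap a member, of which a part is described.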

Additional observations from a re-analysis of the deposited data

How the results depend on the processing

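Of 864 values of single members under 16 alternative fits, 808 kept their side of the threshold, 34 lost the call and 22 gained one. The calls of HRAS, NRAS, RASA1 and RASAL2 in M4 against M1 held in all of these fits. The numbers of members called moved as follows. In M2 against M1 it was 0, and 1 (NRAS) without the filter on low counts or with DESeq2. In M3 against M1 it was 4, then 0 with the labels of the 2 disputed libraries exchanged and 2 without both. In M3 against M2 it was 3, then 1 (RASAL2) with a 2-fold change also required, and 0 with the labels exchanged or without both libraries. In M4 against M3 it was 1, then 2 without the filter, 3 with DESeq2, and 0 with a 2-fold change required or the labels exchanged. With each library left out in turn, the number ran from 0 to 1 in M2 against M1, 4 to 5 in M3 against M1, 4 to 7 in M4 against M1, 0 to 4 in M3 against M2, 3 to 5 in M4 against M2 and 0 to 2 in M4 against M3. It was 0 in M3 against M2 without either M2 library and 0 in M4 against M3 without either M4 library. The cause was not tested, apart from the loss of libraries in these fits. Leaving out both disputed libraries was an alternative chosen after seeing the data.

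Replicate numbers were shared across lines, and r of the replicate differences between lines was 0.216 for M3 and M4 and ran from -0.0864 to 0.00742 for the other pairs, so that the numbers were not taken to pair the libraries. With the replicate block the members called were 0, 4, 5, 3, 4 and 1 in M2, M3 and M4 against M1, M3 and M4 against M2, and M4 against M3, and they were the same genes as without it. With 2 libraries per line, p-values measure the spread between these cultures only, and MRAS, at 3.11 to 11.75 CPM, is the member with the least depth.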
